A study of Mus musculus with 12 samples.

Results

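The circadian clock genes described here were Per1, Per2, Per3, Cry1, Cry2, Arntl, Clock, Nr1d1, Nr1d2 and Dbp, taken by name from a table of 38339 genes, in which all 10 were found. RNA levels came from 12 libraries of bone marrow from mice into which 6 primary leukemias of the T lineage (T-ALL, a blood cancer arising from developing T cells) had been transplanted. The labelled strain was C57BL/6 x 129Sv/Jae F1. For each leukemia, 1 moribund recipient was given vehicle (VEH) and 1 dexamethasone (DEX, a synthetic glucocorticoid), and marrow was taken 4 hours later. The pairs are numbered 1 to 6. In the labels leukemia 6 is JW-81-59B, 5 is 20M-116B, 4 is 2M-127B, 3 is 78A-143B, 2 is 73M-19A and 1 is 73A-46B, so the replicate is the leukemia and each arm of it is 1 mouse. The labels name no genotype, no dexamethasone dose and no hour of the day at collection. The whole marrow was used after red cell lysis, with no sort for leukemia cells. In such bulk samples, fewer cells of a type and less RNA per cell cannot be told apart.

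The clock runs in most cells as a loop of transcription and feedback. The proteins of Clock and Arntl (also called BMAL1) form a pair that binds E-box sequences and switches on the Per, Cry, Nr1d and Dbp genes. The PER and CRY proteins gather over the day and inhibit that pair, while the nuclear receptors REV-ERB alpha and beta, encoded by Nr1d1 and Nr1d2, repress Arntl, and DBP carries the rhythm on to output genes through D-box sequences. Glucocorticoids are one of the signals that set the phase of this loop in tissues outside the brain, and Per1 is known as a direct target of the glucocorticoid receptor.

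Promoter sequences are shown for the 4 members on which the results turn: Per1, with the widest single change, Cry1 and Dbp, which passed the test, and Arntl, which differed most between leukemias. Each run is the 250 bases before a RefSeq start site on build GRCm38.p6, written 5′ to 3′ on the gene's strand, with capitals marking matches to the motifs named after the sequences. Of the 10 members, 9 had an entry in the RefSeq promoter table, and Per2 had none. Per1 and Arntl had 2 windows each and Clock had 3, and for Per1 and Arntl the first is shown.
Per1 (chr11:69098699-69098948, plus strand): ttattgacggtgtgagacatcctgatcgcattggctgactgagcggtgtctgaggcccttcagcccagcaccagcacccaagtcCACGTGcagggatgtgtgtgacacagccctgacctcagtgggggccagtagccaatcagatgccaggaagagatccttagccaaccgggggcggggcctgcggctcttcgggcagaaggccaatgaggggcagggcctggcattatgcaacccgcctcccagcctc
Cry1 (chr10:85185055-85185304, minus strand): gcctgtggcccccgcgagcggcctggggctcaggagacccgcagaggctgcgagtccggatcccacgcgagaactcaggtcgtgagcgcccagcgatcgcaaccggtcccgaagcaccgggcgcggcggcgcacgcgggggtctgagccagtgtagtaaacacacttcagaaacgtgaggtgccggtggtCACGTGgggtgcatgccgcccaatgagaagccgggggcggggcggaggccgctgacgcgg
Dbp (chr7:45704997-45705246, plus strand): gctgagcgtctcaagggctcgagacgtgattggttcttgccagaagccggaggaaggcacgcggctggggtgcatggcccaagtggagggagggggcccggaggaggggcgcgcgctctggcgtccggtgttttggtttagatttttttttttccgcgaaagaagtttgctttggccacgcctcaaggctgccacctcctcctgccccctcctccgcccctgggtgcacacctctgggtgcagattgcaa
Arntl (chr7:113207215-113207464, plus strand): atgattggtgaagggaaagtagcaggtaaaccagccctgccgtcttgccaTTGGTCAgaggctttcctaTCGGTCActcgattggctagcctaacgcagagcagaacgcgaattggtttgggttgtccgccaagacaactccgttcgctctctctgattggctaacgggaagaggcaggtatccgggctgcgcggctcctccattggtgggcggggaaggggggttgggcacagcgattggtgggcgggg

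Motifs were searched on both strands, and a match describes letters only. The E-box CACGTG was found once each in the Per1 window shown, 166 to 161 bases ahead of that start, and before Cry1, 60 to 55 bases ahead. The other Per1 window held no E-box. It stands in 6.02% of all 32851 promoter windows of this length. The ROR element, searched as TNGGTCA, occurred at 2 places before Arntl, as TTGGTCA and TCGGTCA, and is held by 9.19% of windows. It also occurred before Cry2 and Per3. The D-box TTANGTAA, in 2.06% of windows, matched at 2 places before Per3, both as TTATGTAA. No window of the 9 members matched the cAMP response element TGACGTCA (1.55% of windows) or the glucocorticoid response element, searched as GNACA and TGTNC with 3 bases between them (0.387% of windows), and the Dbp window matched none of the 5 motifs.

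Values were FPKM, in which fragments are divided by gene length and by the number of fragments mapped in a library. FPKM allow levels of different genes to be compared. In the VEH libraries the mean FPKM level was highest for Arntl (14.3 ± 6.40; SD, n = 6, as for the levels that follow) and Cry1 (12.02 ± 1.49). Nr1d2 (8.54 ± 2.45), Cry2 (7.96 ± 1.76), Clock (7.92 ± 2.88) and Dbp (6.02 ± 0.59) came next. Per1 (3.78 ± 0.99), Per2 (2.12 ± 0.57), Per3 (0.76 ± 0.33) and Nr1d1 (0.76 ± 0.27) were lowest. Neighbours in this order had overlapping ranges throughout, except Per2 and Per3. Cry1 was above Nr1d2, Dbp above Per1 and Per1 above Per2 in 6 of 6 VEH libraries, whereas Nr1d2 was above Cry2 in 2 of 6 only.

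The file gave no counts. The smallest steps of sparse short genes were read as 1 fragment, which put 11 libraries at about 11800000 to 36800000 fragments, and the VEH library of leukemia 2 had no clear step. Under that rough estimate Nr1d1 rested on 22 to 125 fragments per library, Per3 on 57 to 310, Dbp on 138 to 758 and Cry1 on 431 to 1714. The sum of 12 granulocyte markers was lower with DEX in 5 of 6 pairs, and ran from 2316 to 9063 FPKM in VEH and from 1532 to 5474 FPKM in DEX. The sum of 10 T-lineage markers was also lower with DEX in 5 of 6 pairs, at 1239 to 1944 FPKM in VEH and 1090 to 1603 FPKM in DEX. The drug response genes Tsc22d3, Fkbp5 and Nr3c1, the last of which encodes the glucocorticoid receptor, were higher with DEX in 6 of 6 pairs.

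After 4 hours of dexamethasone, 2 of the 8 clock genes that were high enough to test were lower, Dbp and Cry1, and 0 were higher. Per1, the member known as a glucocorticoid target, did not pass. Its difference of log2(FPKM + 1) was 3.39 in leukemia 6 and between -0.13 and 0.77 in the others. In FPKM it went from 2.53 to 36.08 in leukemia 6 (14.3-fold) and from 3.34 to 6.42 in leukemia 5. Differences were taken on the scale log2(FPKM + 1), on which changes of low genes are understated, and tested with limma with leukemia as a block and Benjamini-Hochberg adjustment over 12358 genes. Of all genes tested, 9.28% were called lower and 4.27% higher at an adjusted p under 0.05, which is the background for the counts of 2 and 0 of 8. At an unadjusted limma p under 0.05, 4 members were lower and 0 higher, beside 20.5% and 9.69% of all genes tested. The median difference of the 8 members was -0.23, beside -0.05 for all genes tested. By an exact two-sided sign-flip test of the 6 pairs, 4 of 10 members (Per2, Cry1, Arntl and Dbp, all among the 8 tested with limma) reached 0.03125, the smallest p that 6 pairs allow, each with a lower value in 6 of 6 leukemias. Of all 12358 genes, 13.7% were lower in 6 of 6 leukemias.

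**Figure D1:**
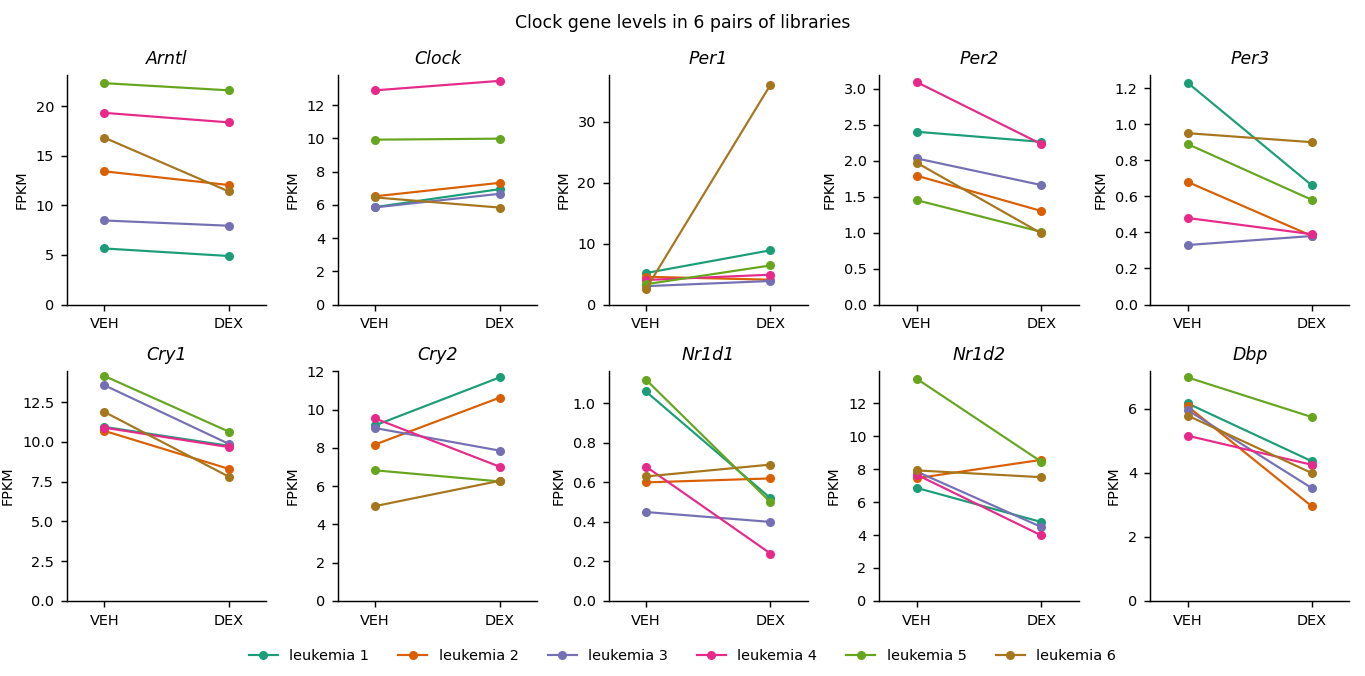
Level of each clock gene in FPKM (vertical axis, linear, from 0) in the VEH and DEX library of each leukemia, joined by a line per leukemia. Cry1 and Dbp lines slope down in all 6 leukemias, and the Per1 line of leukemia 6 runs from 2.53 to 36.08. The Arntl line of leukemia 6 falls from 16.81 to 11.39. On the scale log2(FPKM + 1) that is -0.52, and the other 5 differ by no more than 0.18.

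Among the output genes of the loop, Dbp encodes a transcription factor of the PAR bZIP family. At its locus (ENSMUSG00000059824, GRCm38 chromosome 7, 45705088 to 45710203) the level had a lowest value of 5.16, a median of 6.02 and a highest value of 6.98 FPKM in VEH, against 2.95, 4.12 and 5.74 FPKM in DEX. The groups overlapped only through the DEX library of leukemia 5, which at 5.74 FPKM stood above the lowest VEH library. Dbp fell by 0.47 ± 0.10 (limma SE, n = 6; adjusted p = 0.0198), with single leukemias between -0.84 in leukemia 2 and -0.23 in leukemia 4. The mean DEX level was 0.686 times the mean VEH level. Without leukemia 1 the difference was -0.48 with an adjusted p of 0.0558. Dbp shares 539 bp of its exons (18.0%) with Sphk2 on the other strand, whose mean FPKM was 5.77 with VEH and 5.62 with DEX, and whether the counting used strand is not given in the sources used here.

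Of the repressors, Cry1 (ENSMUSG00000020038, GRCm38 chromosome 10, 85131700 to 85185064) encodes a cryptochrome, one of the proteins that inhibit the CLOCK and ARNTL pair. It ran from 10.69 through a median of 11.4 to 14.14 FPKM in VEH, and from 7.81 through 9.71 to 10.64 FPKM in DEX. Every DEX library thus lay below every VEH library, by a narrow margin. Cry1 was 1 of 8 tested members with such a separation, which 1.34% of all genes tested showed. It fell by 0.33 ± 0.08 (limma SE, n = 6; adjusted p = 0.0266), between -0.55 in leukemia 6 and -0.15 in leukemia 1. Its call was close to the threshold: the adjusted p was 0.0549, 0.0595, 0.0885 and 0.0501 without leukemia 2, 3, 5 or 6, while the difference stayed between -0.29 and -0.33. With no filter on low values neither gene was called (Cry1 adjusted p = 0.0668, Dbp adjusted p = 0.078).

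Cry2, the other cryptochrome, had no common direction. It was higher with DEX in leukemias 1, 2 and 6 and lower in leukemias 3, 4 and 5, at a mean of 7.96 FPKM in VEH and 8.29 FPKM in DEX. The limma difference was 0.04 ± 0.12 (SE; adjusted p = 0.83), and it turned to -0.07 when libraries were rescaled to a fixed sum. Whether Cry1 and Cry2 differ in response was not tested.

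Per1, a period gene known as an early responder to outside signals (ENSMUSG00000020893, GRCm38 chromosome 11, 69095217 to 69109960), had the widest spread of differences of any member. It went from 5.17 to 8.91 FPKM in leukemia 1, from 4.56 to 4.08 in leukemia 2 and from 3.02 to 3.87 in leukemia 3. In leukemia 4 the values were 4.03 and 4.90 FPKM, in leukemia 5 they were 3.34 and 6.42, and in leukemia 6 they were 2.53 and 36.08. VEH levels were thus all between 2.53 and 5.17 FPKM, and the highest DEX value stood far above the next, 8.91. The limma difference was 0.87 ± 0.40 (SE, n = 6; adjusted p = 0.18), and the exact sign-flip p was 0.0625 with 5 of 6 leukemias higher. Without leukemia 6 the difference was 0.37 (adjusted p = 0.133), from a mean of 4.02 ± 0.88 to 5.64 ± 2.09 FPKM (SD, n = 5).

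The Per1 changes had the same order over the leukemias as those of Tsc22d3, a direct glucocorticoid receptor target that encodes the leucine zipper GILZ. Ordered by the Tsc22d3 difference, the leukemias ran 2, 4, 3, 1, 5 and 6, with values of 0.47, 1.04, 1.17, 1.74, 1.78 and 2.05. In the same order the Per1 differences were -0.13, 0.23, 0.28, 0.68, 0.77 and 3.39. Both rankings were identical (Spearman's rho = 1.0, exact permutation p = 0.00278, adjusted over 4 relations 0.0111; Pearson's r = 0.75, exact p = 0.0681, adjusted 0.272; n = 6). Without leukemias 2 and 6, the farthest from the Per1 median, r was 0.99 over the remaining 4. Under quantile normalization rho was 0.71 (adjusted exact p = 0.311), so the rank relation depended on that choice. The other 2 drug response genes did not have this order. For leukemias 2, 4, 3, 1, 5 and 6 the Fkbp5 differences were 0.74, 1.31, 0.94, 1.54, 1.21 and 0.61. Those of Nr3c1 were 0.75, 0.32, 0.87, 0.70, 0.69 and 0.79. Their relations to Per1 were not tested. The sets split by the index label, described further on, hold 3 leukemias each, too few for a correlation.

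**Figure D2:**
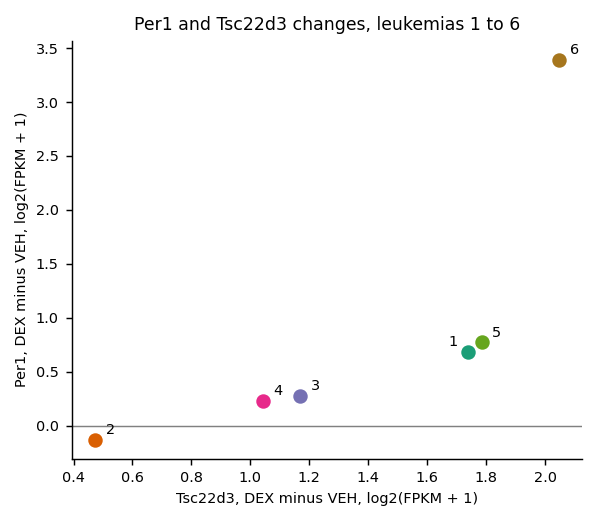
DEX minus VEH difference of log2(FPKM + 1) for Tsc22d3 (horizontal axis) and Per1 (vertical axis), 1 point per leukemia, numbered 1 to 6. Per1 differences are larger at each step of Tsc22d3, and leukemia 6, at 2.05 and 3.39, stands far above the rest.

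The genes whose pattern was most like that of Per1 over the 12 libraries were alike mainly through the DEX library of leukemia 6. These were Ighv1-82, an immunoglobulin variable segment (r = 0.86), Rhoh, a blood cell GTPase (r = 0.85), and Tnfaip3, which encodes the NF-kappaB inhibitor A20 (r = 0.85). In leukemia 6, Tnfaip3 went from 24.46 to 146.49 FPKM and Rhoh from 37.63 to 83.13 FPKM. Over the other 10 libraries the correlations with Per1 were 0.47 for Ighv1-82, -0.05 for Rhoh and 0.42 for Tnfaip3. That library also had the lowest granulocyte marker sum (1532 FPKM) and monocyte marker sum (43.7 FPKM) of all 12, and the part of either in the Per1 value was not tested.

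Per2, a second period gene, was lower with DEX in 6 of 6 leukemias but did not pass. Its VEH values ran from 1.45 through a median of 2.00 to 3.09 FPKM and its DEX values from 0.99 through 1.48 to 2.26 FPKM, with wide overlap. The difference was -0.29 ± 0.10 (limma SE; adjusted p = 0.0913), and the largest step was in leukemia 6, from 1.97 to 0.99 FPKM, where Per1 went the other way. Per3 was too low to be tested, at 0.33 to 1.23 FPKM in VEH and 0.38 to 0.90 FPKM in DEX. It was lower in 5 of 6 leukemias (exact sign-flip p = 0.0938).

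The REV-ERB genes, which encode the repressors of Arntl, gave no call. Nr1d2 was lower with DEX in 5 of 6 leukemias and Nr1d1 in 4 of 6. Nr1d2 went from 6.86 to 4.79 FPKM in leukemia 1, from 7.85 to 4.49 in leukemia 3, from 7.66 to 3.98 in leukemia 4 and from 13.48 to 8.45 in leukemia 5. It went from 7.45 to 8.56 FPKM in leukemia 2 and from 7.92 to 7.51 in leukemia 6. Its difference over all 6 was -0.41 ± 0.13 (limma SE; adjusted p = 0.0791), and it passed without leukemia 2 (-0.52, adjusted p = 0.0326). Nr1d1 was below 1.2 FPKM in all libraries and was not tested. Its FPKM were lower with DEX in leukemias 1 (1.06 to 0.52), 3 (0.45 to 0.40), 4 (0.68 to 0.24) and 5 (1.12 to 0.50), and higher in leukemias 2 (0.60 to 0.62) and 6 (0.63 to 0.69). Nr1d1 shares 263 bp of its exons (8.55%) with Thra on the other strand, which stood at 10.9 FPKM in VEH and so above Nr1d1 itself.

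The activators Arntl and Clock did not pass. Arntl went from 16.81 to 11.39 FPKM in leukemia 6, which is -0.52 on the scale log2(FPKM + 1). In the other 5 it differed by no more than 0.18 on that scale. Its difference was -0.17 ± 0.08 (limma SE; adjusted p = 0.191), lower in 6 of 6. Clock had a difference of 0.08 ± 0.08 (adjusted p = 0.53), higher in 5 of 6 leukemias, and -0.04 when libraries were rescaled to a fixed sum.

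**Figure D3:**
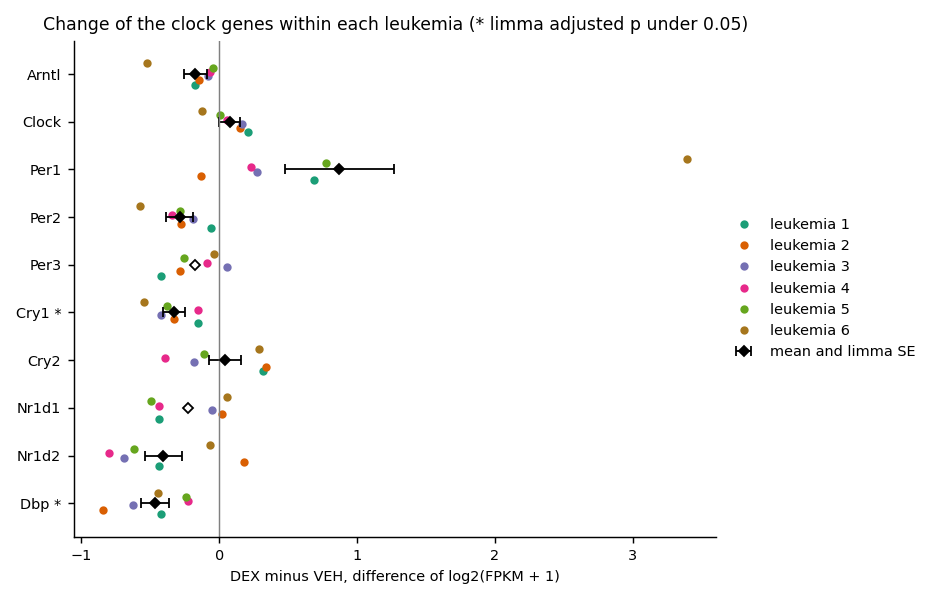
DEX minus VEH difference of log2(FPKM + 1) (horizontal axis) for each clock gene, with 1 coloured point per leukemia and a filled diamond with its limma SE for the mean, or an open diamond without error for the 2 genes not tested. Dbp and Cry1, marked by an asterisk, lie left of 0 in all 6 leukemias, and the Per1 point of leukemia 6 lies at 3.39.

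In the labels, the VEH and DEX libraries of leukemias 1, 3 and 4 carry an index in the description. Of leukemias 2, 5 and 6 the VEH libraries carry one and the DEX libraries none. Within leukemias 2, 5 and 6, treatment and the index label therefore cannot be told apart. Taken apart, Dbp stood at -0.42 (adjusted p = 0.0893) in leukemias 1, 3 and 4 and at -0.51 (adjusted p = 0.129) in leukemias 2, 5 and 6, and Cry1 at -0.24 (adjusted p = 0.202) and -0.42 (adjusted p = 0.114). Nr1d2 stood at -0.64 (adjusted p = 0.028) and -0.17 (adjusted p = 0.59), and Per1 at 0.40 (adjusted p = 0.126) and 1.35 (adjusted p = 0.185). The difference between the 2 sets was not tested. With a term for this index, the call of neither Dbp (adjusted p = 0.154) nor Cry1 (adjusted p = 0.255) held. In that fit the estimate is that of leukemias 1, 3 and 4 by construction.

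The summed granulocyte markers, lower with DEX in 5 of 6 leukemias, were higher in leukemia 3 (2316 to 3333 FPKM). Of the 12 markers, none of them under 0.1 FPKM in every library, 2 were called lower (Ltf at -0.91 and Cebpe at -0.68) and 0 higher, beside 9.28% and 4.27% of all genes tested. The other 10 did not pass, among them Mmp8 at 0.43 and Retnlg at 0.01. The T-lineage sum was also lower in 5 of 6 leukemias. Of 9 tested T-lineage markers, 4 were called lower (Cd3g, Lck, Cd2 and Cd5) and 0 higher, beside the same 9.28% and 4.27%. The sums of monocyte, erythroid and B-lineage markers were lower with DEX in 4, 3 and 5 of 6 pairs. The stromal and endothelial sum was lower in 6 of 6, and was mostly Pecam1 (46.90 of 48.60 FPKM in the VEH library of leukemia 1), itself lower in 6 of 6. The rest of that list, at no more than 1.61 FPKM, did not share this fall. Cdh5 was higher with DEX in 6 of 6 leukemias, Lepr in 5, Col1a1 and Cxcl12 in 4 each and Kdr in 3. In leukemia 2, where Dbp fell most, the erythroid sum went from 1209 to 153 FPKM and the B-lineage sum from 51.6 to 8.4 FPKM. The part of any of these cells in the Dbp and Cry1 results was not tested.

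Between leukemias, Arntl, Clock and Per2 differed beyond the spread within pairs, 3 of 8 tested members by the F test on the leukemia terms, against a background of 51.1% of all genes tested. Each leukemia was 1 pair of mice, and the hour of collection is not labelled, so leukemia and hour of collection cannot be told apart. For Arntl (ENSMUSG00000055116, GRCm38 chromosome 7, 113207465 to 113314126) VEH levels were 5.65 FPKM in leukemia 1, 13.42 in leukemia 2, 8.47 in leukemia 3, 19.31 in leukemia 4, 22.30 in leukemia 5 and 16.81 in leukemia 6, a range of 3.95-fold. The DEX levels were 4.89, 12.04, 7.94, 18.35, 21.58 and 11.39 FPKM in the same order, so leukemias 4 and 5 were highest and 1 and 3 lowest in both arms (limma adjusted p = 8.5e-05). Clock was highest in leukemia 4 (12.90 FPKM in VEH, 13.47 in DEX) and leukemia 5 (9.93 and 9.99), with 5.84 to 7.33 FPKM in the 8 libraries of the others (adjusted p = 0.0014). Per2 also passed (adjusted p = 0.0392), with VEH levels from 1.45 FPKM (leukemia 5) to 3.09 FPKM (leukemia 4). Its call was close to the threshold and was lost at a pseudocount of 0.1 (adjusted p = 0.0511), with no filter (0.122), without leukemia 1, 4 or 5 (0.0626, 0.156 and 0.11), in either set of 3 leukemias and with the index term. The count of 3 became 5 without leukemia 2, where Nr1d2 and Cry2 joined, and 1, Arntl, in leukemias 2, 5 and 6. Cry1 (adjusted p = 0.218) and Dbp (adjusted p = 0.264), whose VEH levels spanned 1.32-fold and 1.35-fold, did not pass.

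Genes most like Arntl over the 12 libraries were Neu3, a sialidase (r = 0.94), Erc1, a scaffold protein gene (r = 0.94), and Kcnmb4, a potassium channel subunit (r = 0.93). Without leukemia 6 these were 0.96, 0.94 and 0.94 over 10 libraries, and the 2 libraries of a leukemia are not independent of each other in them. Across the 6 VEH libraries no relation among the arms of the loop passed. Arntl with its repressor Nr1d1 gave r = 0.04 (exact permutation p = 0.928; rho = 0.43, exact p = 0.419). Arntl with Dbp gave r = -0.02 (exact p = 0.979; rho = -0.09, exact p = 0.919), and Nr1d1 with Dbp r = 0.58 (exact p = 0.247; rho = 0.49, exact p = 0.356). Adjusted over the 4 relations, these were 0.979, 0.979 and 0.494 for r, and 0.559, 0.919 and 0.559 for rho. Without the 2 leukemias farthest from the median of the first gene, r became 0.82, 0.26 and -0.62. The remaining 4 leukemias are too few to say what each value rested on.

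A further list held 28 genes that bind, modify or follow the core clock, of which 19 were tested. With DEX, 2 of them rose and 5 fell, while 12 did not pass, beside the background of 4.27% and 9.28% given above, and their median difference was -0.02, beside -0.05 for all genes. Usp2, a deubiquitinase that acts on clock proteins, rose by 1.24 ± 0.16 (limma SE; adjusted p = 0.00247), from 1.22 to 4.48 FPKM in VEH to 2.09 to 10.93 FPKM in DEX, and in 6 of 6 leukemias. Its smallest rise was in leukemia 6 (1.22 to 2.09 FPKM), the leukemia with the largest Per1 difference. Nfil3, which encodes the repressor E4BP4 that competes with DBP for D-box sequences, rose by 0.55 ± 0.14 (adjusted p = 0.0375), in every leukemia but the sixth (1.75 to 1.61 FPKM). Its call was lost when rescaled to a fixed sum (0.42, adjusted p = 0.084), with a filter of 0.5 FPKM in 3 libraries (adjusted p = 0.0553), with no filter (0.136), with no replicate block (0.778), in leukemias 2, 5 and 6 (0.312), with the index term (0.0766) and on leaving out any 1 of leukemias 1, 2, 3, 4 and 5 (adjusted p = 0.0547 to 0.116). Without leukemia 6 it held (0.67, adjusted p = 0.0121).

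The genes of that list that fell were Nampt, an enzyme of NAD synthesis (-0.51), Wee1, a kinase that holds back mitosis (-0.41), Csnk1e, a kinase that phosphorylates PER proteins (-0.40), Tipin (-0.33) and its partner Timeless (-0.31), both of the replication fork. Their limma adjusted p-values were 0.032, 0.020, 0.0251, 0.0184 and 0.0471. Without leukemia 1, without leukemia 5, with no filter and in leukemias 2, 5 and 6, 0 of the 5 were called (counts of 0 by limma), and without leukemia 6 the count was again 5. Csnk1d, the paralog of Csnk1e, stood at 0.12 (adjusted p = 0.227).

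Several paralogs and regulators of the loop were too low in most libraries for the test, and those named here were chosen after their values were seen. In leukemia 3, Arntl2, the paralog of Arntl, was at 76.86 FPKM with VEH and at 59.59 FPKM with DEX, against values between 0.03 and 1.57 FPKM in the 10 libraries of the other leukemias. Leukemia 3 was also the second lowest for Arntl in both arms. Npas2, the paralog of Clock, was at most 0.43 FPKM. Among the ROR receptors, which activate Arntl at the element that REV-ERB proteins also bind, Rora was at most 0.76 FPKM and Rorb at most 0.04 FPKM.

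**Figure D4:**
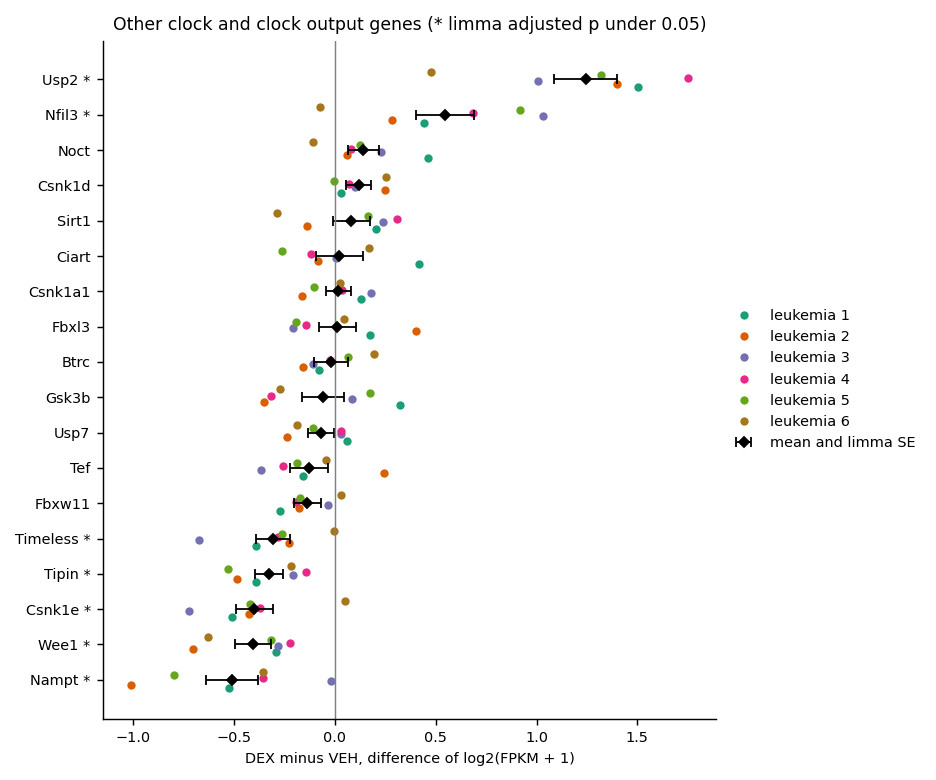
DEX minus VEH difference of log2(FPKM + 1) (horizontal axis) for tested genes of the further clock list, with 1 coloured point per leukemia and a diamond with its limma SE for the mean. Asterisks mark the 2 genes that rose, Usp2 and Nfil3, and the 5 that fell.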

How the data were processed

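The deposited table holds FPKM that the authors computed per gene and library, on a linear scale with 2 decimals, with no counts. Build mm10 is named in the submitters' processing notes, as are RSEM, edgeR and Bowtie2 (version 2), with no role for each, and the annotation and filters are not given in the sources used here. Per the labels' protocols, libraries came from a stranded total RNA kit with paired reads of 100 bp.

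The members and gene lists were chosen with earlier results of these data known. Columns were matched to samples by leukemia code, treatment and animal number. Values were analysed as log2(FPKM + 1), for the 12358 genes (8 of the 10 members) that reached 1 FPKM in 6 or more of the 12 libraries. limma 3.58.1 (R 4.3.3; lmFit, eBayes with trend) was fitted with leukemia as a block and treatment, two-sided, with Benjamini-Hochberg adjustment over all genes tested and a threshold of 0.05. VEH and DEX libraries of a pair carry the same leukemia. Once group means were removed, the correlation across genes of VEH with DEX libraries was 0.55 to 0.82 within pairs and at most 0.21 between leukemias. Removing the means pushes the values between leukemias down by construction.

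Single members were tested by all 64 sign flips, and relations over all 720 pairings. Genes named beside the members were those of the further clock list past the threshold and the 3 genes most correlated with Per1 and with Arntl. Exon overlaps were taken from GENCODE M21, whose assembly, GRCm38, is that of mm10. Fragments per library were estimated from the FPKM steps of sparse genes between 400 and 700 bp long, with an assumed fragment of 150 bp. There were 19 alternative settings. Proteins were not used here. One gene of the further clock list is not reported here.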

Additional observations from a re-analysis of the deposited data

Results flagged for a closer look

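Within each group of 6 libraries the highest and lowest value of each clock gene were compared with the rest by Dixon's ratio, in 20 groups, of which chance marks about 1 in 20. The Per1 level of 36.08 FPKM in the DEX library of leukemia 6 stood apart from the other 5 DEX libraries (gap over range 0.84). The Nr1d2 level of 13.48 FPKM in the VEH library of leukemia 5 stood apart from the other 5 VEH libraries (gap over range 0.84), and in its DEX partner Nr1d2 was at 8.45 FPKM, next to 8.56 FPKM in leukemia 2.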

How the results depend on the processing

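Depth is known only by estimate, and 2 of the 10 clock genes were too low to test. Over all genes, 528 were higher and 1147 lower. These counts were 181 and 370 with no filter, 35 and 46 with no replicate block, 188 and 257 in leukemias 2, 5 and 6, and 236 and 282 with the index term. In leukemias 1, 3 and 4 alone 523 were lower, and rescaled to a fixed sum (TPM) 268 were higher and 1844 lower, at a median of -0.16. Leaving out 1 leukemia gave 233 to 532 higher and 425 to 1042 lower.

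The count of 2 lower clock genes was 0 with no filter, with no replicate block (where the paired design is ignored: Dbp adjusted p = 0.142, Cry1 0.208), in leukemias 2, 5 and 6 and with the index term. It was 1 in leukemias 1, 3 and 4 and 3 when rescaled to a fixed sum, where Nr1d2 joined (-0.49, adjusted p = 0.0174). Leaving out 1 leukemia gave 1 to 2. Dbp and Cry1 were negative in each of the 19 alternatives, as they must be where leukemias are only left out. The limma count of 0 higher did not change in any of them. By the sign-flip test, Per2, Cry1, Arntl and Dbp kept an exact p of 0.03125 under each pseudocount and scaling tried. Nr1d1 and Nr1d2 also reached it, both lower with DEX, when rescaled to a fixed sum. Per1 reached it with quantile normalization, and was higher with DEX.

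Cry2 turned negative when rescaled to a fixed sum (-0.071), without leukemia 1, 2 or 6 (range without 1 leukemia -0.016 to 0.131), and in leukemias 1, 3 and 4 or with the index term (-0.086 in both), and Clock turned to -0.040 when rescaled. The relation of Arntl with Dbp turned to r = 0.22 (rho = 0.26) with median-of-ratios scaling, 0.20 (rho = 0.26) with quantile normalization and 0.014 (rho = 0.029) when rescaled. Per1 with Tsc22d3 gave rho = 0.71 with quantile normalization. Of the further clock list, 2 rose and 5 fell, which became 1 risen when rescaled or with the filter of 0.5 FPKM in 3 libraries, 3 fallen with median-of-ratios scaling, 0 and 0 with no replicate block, 1 and 0 with no filter or in leukemias 2, 5 and 6, 1 and 1 with the index term, 2 fallen in leukemias 1, 3 and 4, and 1 to 2 risen and 0 to 5 fallen without 1 leukemia. The 3 clock genes that differed between leukemias became 1 in leukemias 2, 5 and 6 and 2 to 5 without 1 leukemia. For these last 2 families, part of the settings were chosen after seeing the data. The causes of these changes were not tested.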
